A study of Mus musculus with 6 samples.

Results

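Circular RNAs (circRNAs) of *Homer1* were followed through 4 of the 14236 circRNA probes on the array. The 4 probes were taken by name, as those that the study's list of circRNAs bound by HuD assigns to *Homer1*. They were ASCRP4005043 (mmu_circRNA_010239), ASCRP4014032 (mmu_circRNA_26702), ASCRP4003608 (mmu_circRNA_19101) and ASCRP4008138 (mmu_circRNA_26706). Which of them stands for *circHomer1a* is not stated in the tables used here. Host genes were known only for the 658 probes on the HuD-bound list. Any *Homer1* circRNA probe outside that list would have been missed. RNA came from the nucleus accumbens (NAc), the ventral part of the striatum, of adult male C57BL6 mice (C57Bl/6J in the study's methods). In 3 samples (replicates 2, 3 and 4) the mice had gone through cocaine conditioned place preference (CPP), in which an animal learns to favour a chamber where it received the drug. The other 3 (replicates 1, 5 and 6) were controls, saline-treated according to the series' design text. Each sample was hybridised to 1 array. The design text counts 3 mice against 3, so an array stands for a mouse.

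*Homer1* encodes a scaffold protein of the postsynaptic density. Through its EVH1 domain it holds group I metabotropic glutamate receptors near Shank proteins and inositol trisphosphate receptors, and a short, activity-induced isoform, Homer1a, loosens these links. A circRNA forms when the end of a downstream exon is spliced back to the start of an upstream one, so a probe laid across that junction can tell it from linear mRNA. HuD (ELAVL4) is a neuronal RNA-binding protein that attaches to AU-rich stretches and is known for stabilising mRNAs of plasticity genes.

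All 4 circRNAs were listed on the plus strand of chromosome 13. The list does not name its genome build, but all 4 spans lay inside *Homer1* as placed in GRCm38.p6 (93303757 to 93405129). ASCRP4005043, listed as exonic, spanned 93341756 to 93356079. ASCRP4003608 began 2 bases before it and ended 1 base after it, at 93341754 and 93356080, and was listed as intronic. ASCRP4014032 shared the start of ASCRP4005043, ended further downstream at 93357647, and was also listed as intronic. The span of ASCRP4008138, exonic, was shorter and lay apart, from 93387524 to 93393108. The first 3 spans were 14324, 14327 and 15892 bases long and the last was 5585.

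**Figure D1:**
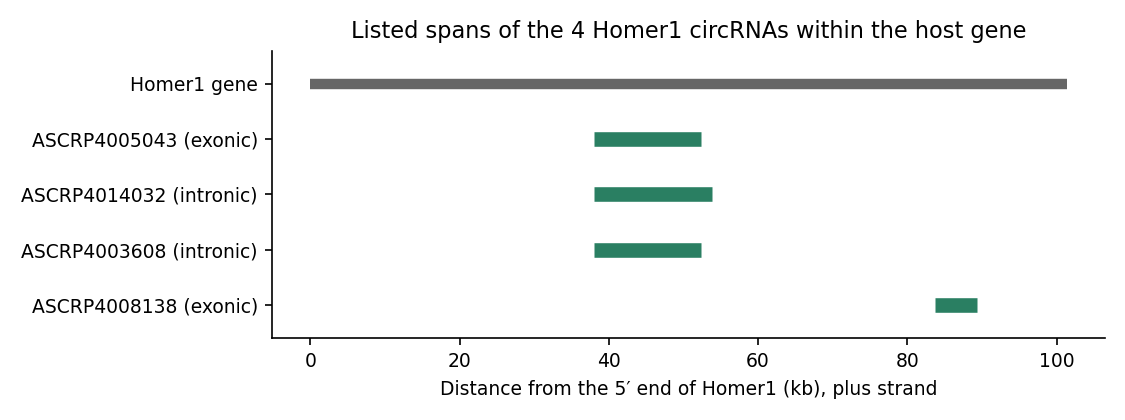
Listed spans of the 4 *Homer1* circRNAs (green bars, with the listed type) below the host gene (grey bar), against distance in kb from the 5′ end of the gene. The starts of the upper 3 lie within 2 bases of each other, 37997 to 37999 bases into the gene, and that of ASCRP4008138 lies 83767 bases into it.

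The junction sequences listed for the probes, each 60 bases long, are shown because they decide what a spot can tell apart. Capitals mark the 27 bases that the first 3 have in common.
ASCRP4005043: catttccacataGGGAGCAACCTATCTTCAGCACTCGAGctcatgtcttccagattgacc
ASCRP4014032: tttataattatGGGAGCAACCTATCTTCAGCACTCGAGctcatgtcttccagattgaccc
ASCRP4003608: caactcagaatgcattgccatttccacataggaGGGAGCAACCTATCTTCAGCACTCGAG
ASCRP4008138: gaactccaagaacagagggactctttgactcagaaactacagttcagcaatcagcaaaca

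ASCRP4005043 and ASCRP4014032 had a run of 48 bases in common and differed in the bases before it. ASCRP4003608 shared a run of 28 bases with ASCRP4005043. When 3 of its bases were passed over, from position 30 counted from its 5′ end, the shared run grew to 39 bases, so those 2 probes differed by these 3 bases and by where the window was set. ASCRP4008138 had no run longer than 8 bases in common with the other 3. No *Homer1* probe shared more than 12 bases with any of the 654 listed probes of other host genes. Whether each spot read only its own circRNA was not tested.

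The spots of ASCRP4005043 and ASCRP4014032 were among the brightest on every array, and the other 2 were far dimmer. All 4 were well above background on all 6 arrays, none was saturated and none was marked as an outlier. The background-subtracted signal of ASCRP4005043, in fluorescence units, was 20469, 5063 and 3964 on cocaine CPP arrays 2, 3 and 4, and 7685, 8430 and 8140 on control arrays 1, 5 and 6. It thus stood high on cocaine CPP replicate 2 and low on replicate 4, with the control arrays close together between them. The signal of ASCRP4014032 was 18100 (rounded from 18099.5), 4226 and 3459 in cocaine CPP and 7012, 7356 and 6682 in control, the same pattern at a slightly lower level. ASCRP4003608 gave 192, 55.8 and 244 in cocaine CPP and 219, 285 and 107 in control. ASCRP4008138 gave 64.7, 30.9 and 62.9 in cocaine CPP and 85.4, 120.5 and 56.3 in control.

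By rank, ASCRP4005043 outshone 96.7% to 98.3% of the circRNA probes of its array and ASCRP4014032 96.4% to 98.2%. ASCRP4003608 outshone 61.2% to 74.6% and ASCRP4008138 41.6% to 54.3%. The order of the 4 probes was the same on all 6 arrays. It is an order of spot brightness: hybridisation differs between probes, so it gives no ratio of molecules. On the same array the spot of ASCRP4005043 was 1.096 to 1.22 times as bright as that of ASCRP4014032, 16.2 to 107 times as bright as that of ASCRP4003608 and 63.1 to 316 times as bright as that of ASCRP4008138. For comparison, the 150 spots named as negative controls had a median signal of 1.38 to 1.88. The brightest of these control spots reached 51.2 to 175. It outshone ASCRP4003608 on cocaine CPP replicate 3, and ASCRP4008138 on that array and on control replicate 5.

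Arrays also differed in brightness as a whole, which the raw signals carry. The upper quartile of log2 signal over circRNA probes ran from 6.77 on cocaine CPP replicate 3, the dimmest array with 77.8% of circRNA probes well above background, to 8.31 on control replicate 5. On the other 5 arrays 87.8% to 93.2% of the probes were above background. Signals were therefore expressed as log2 signal minus this upper quartile, called relative log2 signal below. All arrays came from 1 slide and 1 scan. The control arrays and cocaine CPP replicate 2 occupied slide row 1, and cocaine CPP replicates 3 and 4 row 2. Cell type markers were limited to circRNA hosts on the HuD-bound list, which held 7 of 17 chosen striatal projection neuron genes. For cortical projection neurons it held 2 of 8, and for astrocytes and oligodendrocytes 2 of 6 each. All 11 probes of the 7 striatal projection neuron genes were well above background on all 6 arrays. Their summed relative log2 signal was 4.16 to 5.73 in cocaine CPP and 4.80 to 5.07 in control. Sums for astrocyte hosts (2 probes) were 3.93 to 4.24 and 4.14 to 4.40. Those of cortical projection neuron hosts (2 probes) were -0.36 to 0.38 and -0.033 to 0.43, and those of oligodendrocyte hosts (2 probes) were -0.036 to 0.62 and -0.039 to 0.17. These ranges overlap between the groups for all 4 cell types, and no listed probe stood for a microglial gene. Probe by probe, the mean was lower in cocaine CPP for 10 of the 11 striatal probes, both astrocyte probes, 1 of the 2 cortical and 1 of the 2 oligodendrocyte probes, where 54.1% of all probes tested were lower. The part of these markers in the results below was not tested. In bulk tissue, fewer cells of a type and less RNA per cell cannot be told apart.

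The first question was how far the abundance of the *Homer1* circRNAs varied between mice of a group. On the relative scale ASCRP4005043 read 6.11, 5.53 and 3.99 in cocaine CPP replicates 2, 3 and 4, and 4.90, 4.73 and 5.56 in control replicates 1, 5 and 6. The highest and the lowest array both belonged to cocaine CPP and were 4.34-fold apart. Only 4.55% of the 12956 probes tested varied over a wider range across the 6 arrays. ASCRP4014032 read 5.93, 5.27 and 3.80 in cocaine CPP and 4.77, 4.53 and 5.28 in control, a range of 4.40-fold. ASCRP4003608 varied less, 1.92-fold, reading -0.62, -0.97 and -0.029 in cocaine CPP and -0.23, -0.16 and -0.68 in control. ASCRP4008138 varied 1.74-fold, reading -2.19, -1.82 and -1.99 in cocaine CPP and -1.59, -1.40 and -1.61 in control. The median range over all probes tested was 0.83 on the log2 scale, against 2.12, 2.14, 0.94 and 0.80 for the 4 in the order given above.

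**Figure D2:**
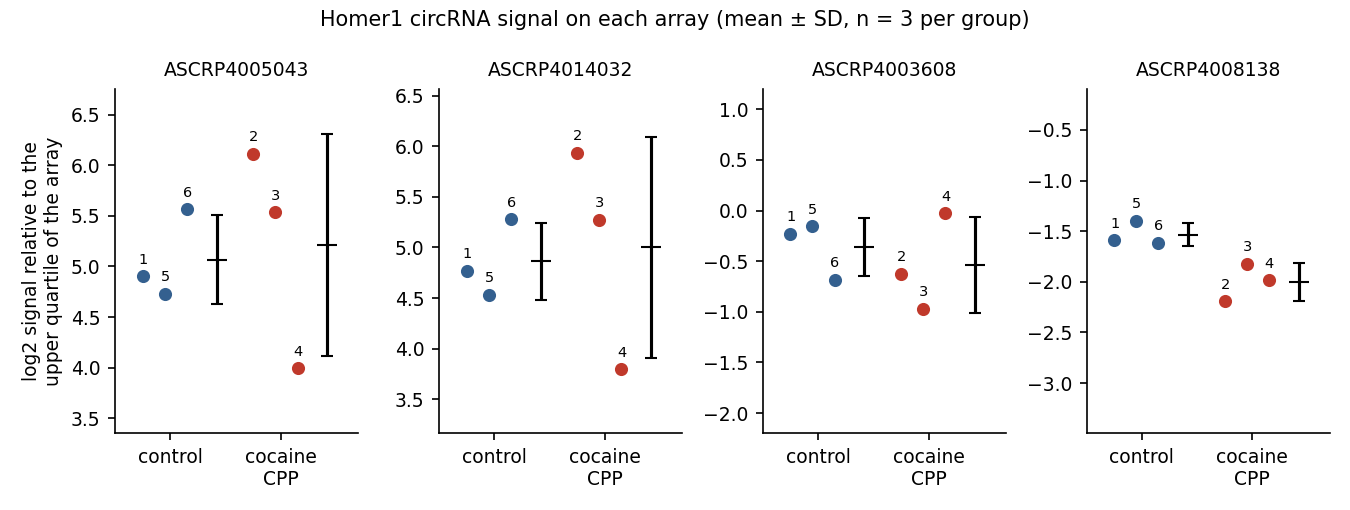
Relative log2 signal of each *Homer1* probe on each array (points, numbered by replicate) with the group mean ± SD (n = 3), on axes of equal length. Groups overlap for the first 3 probes; for ASCRP4008138 all 3 cocaine CPP arrays, -2.19 to -1.82, lie under the 3 control arrays, -1.61 to -1.40.

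The next question was whether the 4 probes ranked the arrays alike. ASCRP4005043 and ASCRP4014032, the pair with 48 shared bases, did so almost exactly, with a Pearson r of 0.997 (exact permutation p = 0.00139, the smallest that the 720 orders of 6 arrays allow; 0.00833 adjusted over the 6 pairs of probes). Their Spearman rho was 1 (exact permutation p = 0.00278, adjusted 0.0167). Without cocaine CPP replicates 2 and 4, the arrays farthest from the median of ASCRP4005043, r was 0.995 over 4 arrays. The difference between the 2 probes within an array was 0.21 ± 0.056 (SD over the 6 arrays) on the log2 scale. Of the 10982 other probes well above background on all arrays, only 1 followed ASCRP4005043 more closely than ASCRP4014032 did, and none followed ASCRP4014032 more closely than ASCRP4005043 did. Since the 2 bright probes have 48 of 60 bases in common, they are not counted here as independent readings, and the part of the shared bases in this r was not tested.

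ASCRP4003608, whose listed span is 3 bases longer than that of ASCRP4005043, ranked the arrays in nearly the opposite order. Its relative log2 signal was highest on cocaine CPP replicate 4, where ASCRP4005043 was lowest, and low on cocaine CPP replicates 2 and 3 and control replicate 6, where ASCRP4005043 was high. Against ASCRP4005043, r was -0.82 (exact permutation p = 0.0444, adjusted 0.114) and rho was -0.77 (exact permutation p = 0.103, adjusted 0.206), so the relation did not pass adjustment. It stayed negative without the 2 farthest arrays (r = -0.94 over 4 arrays) and within groups, over deviations from the group means (r = -0.83). Under the 4 other scalings of the arrays r was -0.86 to -0.82. On log2 signal without any scaling, a setting chosen after the data were seen, r was 0.21; there the brightness of the whole array enters both probes, and r was higher for all 6 pairs. Against ASCRP4014032, r was -0.79 (exact permutation p = 0.0569, adjusted 0.114) and rho -0.77 (exact permutation p = 0.103, adjusted 0.206), and r was -0.93 without the same 2 arrays and 0.26 on unscaled signal.

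ASCRP4008138, the circRNA of the downstream span, followed none of the others past the test. With ASCRP4005043 r was -0.29 (exact permutation p = 0.574, adjusted 0.656) and rho -0.37 (exact permutation p = 0.497, adjusted 0.597). With ASCRP4014032 r was -0.30 (exact permutation p = 0.579, adjusted 0.656), again with a rho of -0.37. Single arrays turned the sign: these r values were 0.31 and 0.35 without cocaine CPP replicate 2, -0.91 and -0.94 without replicate 4, and -0.79 and -0.83 without both. With ASCRP4003608 r was 0.23 (exact permutation p = 0.656, adjusted 0.656) and rho 0.14 (exact permutation p = 0.803, adjusted 0.803). This r was 0.65 without cocaine CPP replicates 3 and 4, and 0.89 without replicates 2 and 4, a removal chosen after the data were seen. It was -0.017 without control replicate 5 and -0.027 over deviations from the group means. On unscaled signal, which carries whole-array brightness, the r of the 2 dim probes was 0.90. Both probes of a pair share the scaling value of each array.

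**Figure D3:**
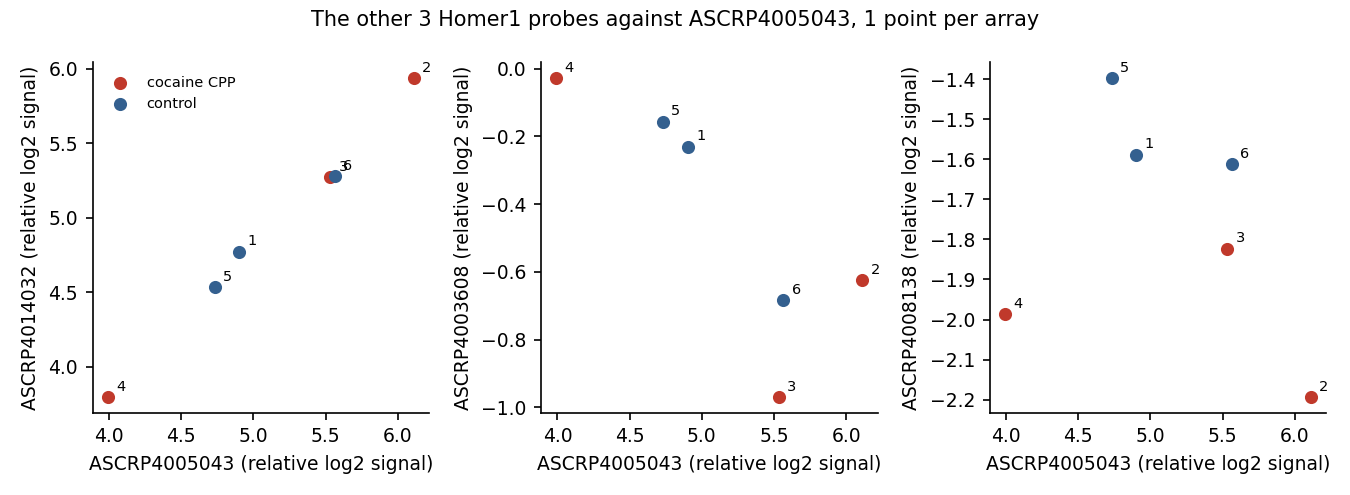
Relative log2 signal of ASCRP4014032, ASCRP4003608 and ASCRP4008138 (vertical axes) against that of ASCRP4005043 (horizontal axis), 1 point per array, numbered by replicate. The first lies on a rising line (r = 0.997), the second falls (r = -0.82) and the third shows no clear trend (r = -0.29).

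Other circRNAs carried the pattern of the bright pair as well. Of the probes well above background on all arrays, 456 (4.15%) had an r over 0.9 with ASCRP4005043 across the 6 arrays. Among the 631 with a known host gene, the closest were from *Slc30a9*, a zinc transporter gene (ASCRP4001665, r = 0.984), and *Kcnc2*, a voltage-gated potassium channel gene (ASCRP4012911, r = 0.984). The same 2 were the closest to ASCRP4014032, led by *Kcnc2* at 0.991. *Kcnc2* varied 4.45-fold over the arrays, as widely as the *Homer1* pair, while *Slc30a9* varied 1.47-fold. The level of the brightest circRNA probes moved along: the 99th percentile of log2 signal stood above the upper quartile by 6.89, 6.61 and 6.14 in cocaine CPP replicates 2, 3 and 4 and by 6.21, 6.64 and 6.72 in control replicates 1, 5 and 6, highest and lowest on the same 2 arrays as ASCRP4005043. The part of this spread in the *Homer1* values was not tested.

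ASCRP4003608 had 520 close neighbours with an r over 0.9 (4.74%), a share near the 4.15% of ASCRP4005043. Among known hosts the closest were *Sort1*, which encodes the sorting receptor sortilin (r = 0.996), *Rbfox1*, a neuronal splicing factor gene (r = 0.982), and *Med13l*, which encodes a Mediator subunit (r = 0.981). ASCRP4008138 had only 25 such neighbours (0.228%), among them *Abi2*, a regulator of actin assembly (r = 0.954), *Arpp21*, a cAMP-regulated phosphoprotein gene of striatal neurons (r = 0.952), and *Nptn*, which encodes the adhesion molecule neuroplastin (r = 0.936). With 6 arrays such values arise for many probes, and they are given as a description.

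The main question of the series was which circRNAs differ after cocaine CPP. None of the 4 *Homer1* circRNAs passed the test. By limma's moderated test over the 12956 probes well above background on at least 3 arrays, the adjusted p was 0.99964 for each of the 4, and 0% of all probes had an adjusted p under 0.05. None of the 4 had an unadjusted p under 0.05, where 0.780% of all probes did. The study named *circHomer1a* as altered from these same samples, so no value here is independent evidence for it. The study's methods count a p under 0.05 as significant and mention no adjustment, which is a looser threshold than the adjusted p used here.

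ASCRP4008138 came nearest. Its mean relative log2 signal was -1.53 ± 0.12 (SD, n = 3) in control mice and -2.001 ± 0.19 (SD, n = 3) after cocaine CPP. The log2 fold change (FC), here and below cocaine CPP minus control, was -0.47 ± 0.21 (SE). This is a ratio of 0.723, with a 95% interval of 0.519 to 1.01 and a limma unadjusted p of 0.0538. Its groups did not overlap, which held for 3.62% of all probes tested and, in the direction of a lower level in cocaine CPP, for 2.44%. The exact permutation p of 0.1 is the smallest that 3 arrays against 3 can give. Its spread within groups was small, 0.16 on the log2 scale against a median of 0.32 over all probes, and 7.15% of the probes tested changed by more, in either direction. The log2 FC stayed below 0 under each alternative that can change it. It ran from -0.66 within slide row 1, where cocaine CPP replicate 2 stands alone against the controls, to -0.25 with normexp background correction. The normexp setting, with an offset of 50, and that with no background subtraction also used quantile normalization in place of the upper quartile. The limma unadjusted p of ASCRP4008138 was under 0.05 in some alternatives. It was 0.0358 with normexp, 0.0314 with no background subtraction and 0.0466 among probes above background on all 6 arrays. With a variance trend it was 0.0499, and without cocaine CPP replicate 3 it was 0.0452. The share of all probes under 0.05 was 0.648%, 0.548%, 0.455%, 0.432% and 1.28% in these settings. Leaving out other arrays raised the limma unadjusted p, to 0.139 without cocaine CPP replicate 2, 0.0745 without replicate 4, and 0.0948, 0.161 and 0.0971 without control replicates 1, 5 and 6. By the unmoderated test that the methods name, 1.45% of all probes and this one of the 4 were under 0.05.

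The bright pair showed no direction that held. ASCRP4005043 averaged 5.07 ± 0.44 (SD, n = 3) in control mice and 5.21 ± 1.095 (SD, n = 3) after cocaine CPP. Its log2 FC was 0.15 ± 0.52 (SE). The 95% interval of the ratio ran from 0.486 to 2.52, so neither a 2-fold rise nor a 2-fold fall lay outside it (limma unadjusted p = 0.783). ASCRP4014032 gave 0.14 ± 0.51 (SE), with an interval from 0.489 to 2.48. Single arrays decided the sign. Without replicate 2 the log2 FC of ASCRP4005043 was -0.30, without replicate 4 it was 0.76 (limma unadjusted p = 0.0533), and within slide row 1, where replicate 2 stands alone against the controls, it was 1.05. For ASCRP4014032 these values were -0.33, 0.74 and 1.07. The log2 FC of ASCRP4005043 was also below 0 without cocaine CPP replicate 3 (-0.014) or control replicate 5 (-0.021), and that of ASCRP4014032 without control replicate 5 (-0.024). The SD of ASCRP4014032 was likewise wider among the cocaine CPP arrays, 1.095 against 0.38 in control.

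ASCRP4003608 averaged -0.36 ± 0.28 (SD, n = 3) in control mice and -0.54 ± 0.48 (SD, n = 3) after cocaine CPP. The log2 FC was -0.18 ± 0.29 (SE), a ratio of 0.880 with a 95% interval of 0.551 to 1.41 (limma unadjusted p = 0.547), and the groups overlapped. It was 0.030 without cocaine CPP replicate 3, the array where this probe was lowest.

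**Figure D4:**
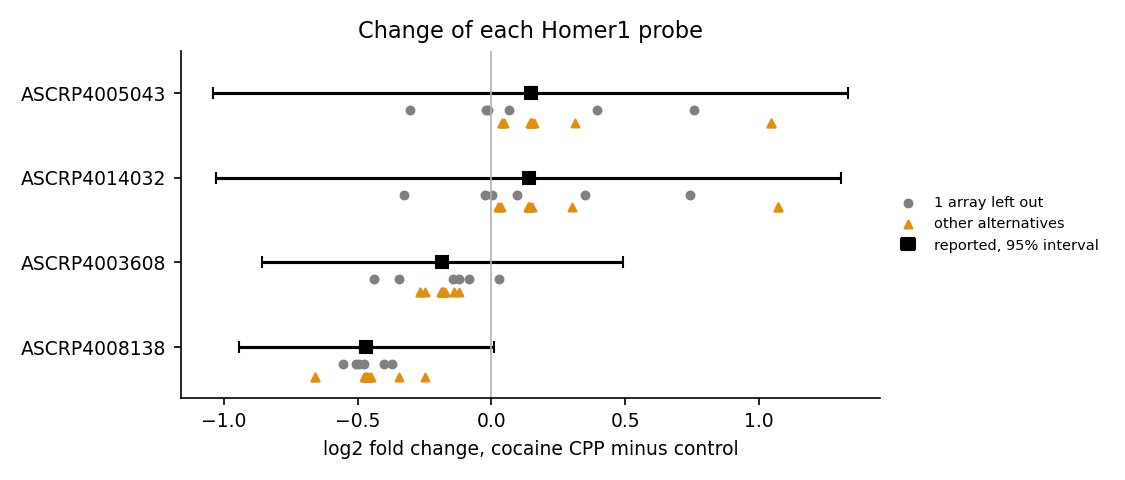
Log2 fold change (cocaine CPP minus control) of each *Homer1* probe with its 95% interval (black squares and bars), with 1 array left out (grey circles) and under the other alternatives (orange triangles). All intervals include 0; all points for ASCRP4008138 lie below 0, and those for the bright pair lie on both sides.

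Differences taken within an array, which subtracting a scaling value from each array cannot change, put the circRNAs against each other. ASCRP4005043 exceeded ASCRP4008138 by 8.31, 7.36 and 5.98 on the log2 scale in cocaine CPP replicates 2, 3 and 4 and by 6.49, 6.13 and 7.18 in control replicates 1, 5 and 6. The group means differed by 0.61, with overlap between groups (exact permutation p = 0.5), and by 0.069 to 1.23 with 1 array left out, lowest without cocaine CPP replicate 2 and highest without replicate 4. ASCRP4003608 exceeded ASCRP4008138 by 1.18 ± 0.22 (SD, n = 3) in control mice and 1.46 ± 0.56 (SD, n = 3) after cocaine CPP, which differed by 0.28 (exact permutation p = 0.5), or by 0.035 without cocaine CPP replicate 4 and 0.59 without replicate 3. ASCRP4005043 minus ASCRP4003608 differed by 0.33 between groups (exact permutation p = 0.8), but by -0.16 without cocaine CPP replicate 2 and 1.20 without replicate 4. ASCRP4005043 minus ASCRP4014032 differed by 0.0071 (exact permutation p = 0.9), and by -0.029 without control replicate 1 and 0.047 without control replicate 6. Over the 6 pairs of probes every adjusted p was 0.9. With 3 arrays against 3 the smallest p is 0.1, so this comparison could not have passed 0.05 and leaves unequal changes of the *Homer1* circRNAs unsettled.

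*Homer1* acts within the postsynaptic glutamate machinery, and circRNAs from a list of its genes were described the same way. The list covers receptors and their auxiliary subunits, scaffolds and adhesion molecules, and signalling downstream of group I metabotropic receptors and calcium. Only probes in the HuD-bound list, which came from striatum of HuD-overexpressing mice, were counted: 36 probes from 24 of the 51 genes. All 36 were tested. None had a limma adjusted p under 0.05 (lowest 0.99964) or an unadjusted p under 0.05, where 0.780% of all probes had the latter. Without cocaine CPP replicate 4, 4 of the 36 had an unadjusted p under 0.05, where 3.41% of all probes did. The log2 FC was below 0 for 26 and above 0 for 10, so 72.2% were lower in cocaine CPP, as were 10 of the 11 striatal marker probes, against 54.1% of all probes tested. The median was -0.16 against -0.023, and over the 652 tested probes of the HuD-bound list outside *Homer1*, which include the 36, 68.7% were below 0 with a median of -0.080. Without cocaine CPP replicate 2 the median was -0.064 both for the list and for all probes tested.

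Among receptors 6 of 7 probes were below 0, with a median log2 FC of -0.14. The *Grm5* probe ASCRP4002060, from the gene of the metabotropic receptor that binds Homer proteins, had a log2 FC of -0.18 ± 0.27 (SE). *Neto2*, an auxiliary subunit of kainate receptors, had the lowest, -0.26 ± 0.23. The highest were those of *Cacng3*, a gene of AMPA receptor regulatory proteins, at 0.17 ± 0.44, and of a probe of the AMPA receptor gene *Gria2* (ASCRP4008224) at -0.053 ± 0.20. None of these passed the test.

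Scaffold and adhesion hosts split more evenly, with 7 of 11 probes below 0 and a median of -0.016. *Lin7a*, a small scaffold gene, was at -0.39 ± 0.29 (SE) and *Dlg1*, which encodes SAP97, at -0.34 ± 0.22 (ASCRP4003149). The 2 probes of *Dlgap1*, whose protein links Dlg scaffolds to Shank, were the highest, at 0.22 ± 0.21 and 0.089 ± 0.24. In the signalling group 13 of 18 probes were below 0, with a median of -0.19. Both *Ppp3ca* probes, from the gene of the calcineurin catalytic subunit, were lowest, at -0.48 ± 0.32 and -0.44 ± 0.32. The highest was a *Camk2d* probe (ASCRP4012654), from a calcium/calmodulin-dependent kinase gene, at 0.35 ± 0.31. The log2 FC of ASCRP4008138, -0.47, lay near the low end of the 36, which ran from -0.48 to 0.35.

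**Figure D5:**
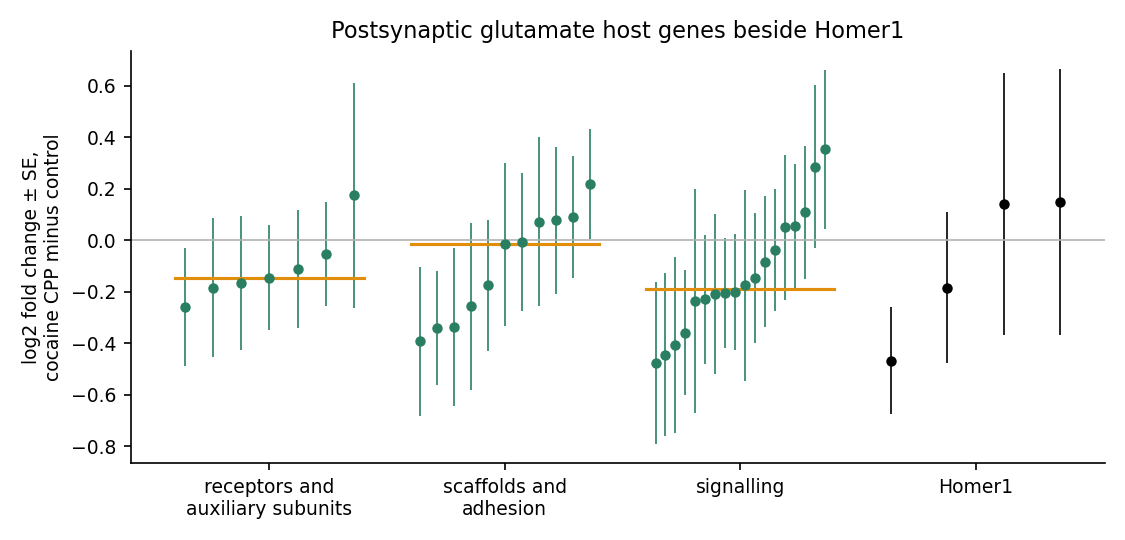
Log2 fold change ± SE (cocaine CPP minus control) of the 36 probes of postsynaptic glutamate host genes by group (green points, orange lines for the medians -0.14, -0.016 and -0.19), and of the 4 *Homer1* probes (black). Values lie on both sides of 0 in each group.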

How the data were processed

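Per the labels, total RNA was digested with RNase R, which removes linear RNA, amplified with random primers and labelled with Cy3. For each array the authors deposited the output of Agilent Feature Extraction 11.0.1.1, holding per-spot intensities, among them a processed signal from which the software had removed background. The deposited lists of altered circRNAs hold the authors' fold changes, p-values and group means, and were not used.

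Relative log2 signal was log2 of the processed signal minus the array's 75th percentile over circRNA probes, leaving out 19 spot values marked as outliers. Differences were tested with two-sided moderated tests in limma 3.58.1 under R 4.3.3, adjusted by Benjamini-Hochberg over probes well above background on at least 3 arrays. The fit was tested on simulated data. Exact permutation tests (two-sided) used 20 splits or 720 orders of the arrays. Probe sequences, spans and host genes were copied from the study's HuD-bound list (658 probes), without its values, and starts were raised by 1 to count from 1. Scaling removes any change common to all probes, and background subtraction makes the fold changes of dim spots wider. Precision is set by the number of arrays and by signal over background.

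The members, lists and tests were chosen with earlier results of these data known. Named circRNAs were the *Homer1* probes, the 2 highest and 2 lowest of each glutamate group, and the 3 closest known hosts of each *Homer1* probe. Some circRNAs that this rule names are not reported here. Alternatives covered scaling, background correction, filters, variance models, the methods' t-test, slide row and leaving out each array. All signals came from the scanner files, and the position of *Homer1* from RefSeq's GRCm38.p6 gene table.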

Additional observations from a re-analysis of the deposited data

How the results depend on the processing

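No paired analysis was possible because no replicate number occurs in both groups. The number of probes past limma's adjustment was 0 in all alternatives but the slide row as a covariate, which gave 1, no *Homer1* probe; all probes under 0.05 unadjusted ranged from 46 to 525 (101 as reported). The number of *Homer1* probes under 0.05 unadjusted was 1 with normexp, no background subtraction, detection on all 6 arrays, a variance trend and the methods' t-test, and 0 to 1 when 1 array was left out; each time it was ASCRP4008138. With 1 array left out, the log2 FC ranged from -0.30 to 0.76 for ASCRP4005043, -0.33 to 0.74 for ASCRP4014032, -0.44 to 0.030 for ASCRP4003608 and -0.56 to -0.37 for ASCRP4008138. The median of the glutamate list ranged from -0.18 to -0.064; without cocaine CPP replicate 2 it was -0.064, as was that of all probes tested.

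Differences within arrays between the groups ranged from -0.16 to 1.20 (ASCRP4005043 minus ASCRP4003608), -0.18 to 1.18 (ASCRP4014032 minus ASCRP4003608), -0.029 to 0.047 (ASCRP4005043 minus ASCRP4014032), and 0.044 to 1.22 (ASCRP4014032 minus ASCRP4008138), when 1 array was left out, with 0 to 1 pairs at the smallest p. The number of probe pairs whose r passed adjustment was 1 as reported, 2 without scaling and 0 with any 1 array or with cocaine CPP replicates 2 and 4 left out, where fewer orders raise the smallest p. Without scaling, r was 0.21 and 0.26 for ASCRP4003608 with the bright pair and 0.30 and 0.33 for ASCRP4008138 with it; that setting and the joint removal of cocaine CPP replicates 2 and 4 were chosen after the data were seen. With 1 array left out, r of ASCRP4008138 ranged from -0.91 to 0.31 with ASCRP4005043, -0.94 to 0.35 with ASCRP4014032 and -0.017 to 0.57 with ASCRP4003608. Without background subtraction the relative signal of ASCRP4008138 averaged -1.36 in place of -1.77; the other 3 moved by less than their spread.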
